A study of Mus musculus with 8 samples.

Results

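Neurog3, Sox3, Upp1, Sall1 and Pou5f1 are genes associated with the progenitor state of undifferentiated spermatogonia (A_undiff). They were chosen by name, with earlier results of these data known. Of these 5 genes, 4 were found among the 14608 genes of the deposited count table, and Pou5f1 was not analysed here. RNA-seq was performed on A_undiff of C57BL/6J mice at 6 to 8 weeks of age. Regenerative A_undiff (BU, 4 libraries) came from testes 10 days after 1 dose of 10 mg/kg busulfan, an alkylating agent that kills many spermatogonia, and homoeostatic A_undiff (CTRL, 4 libraries) came from untreated testes. In both groups the sorted cells carried E-cadherin and CD49f (α6-integrin) and lacked surface c-KIT, and their RNA was amplified as cDNA by a single primer isothermal method (SPIA). The comparison asks how the transcriptome of A_undiff that rebuild the germline differs from that of A_undiff at steady state. CTRL mice received no vehicle, so the drug and its solvent cannot be told apart.

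A_undiff include self-renewing stem cells and transit-amplifying progenitors, which can be told apart in part by their RNA. Progenitors are primed by retinoic acid receptor expression to become c-KIT-positive differentiating spermatogonia, and Neurog3 is the classical marker of this state in the mouse testis. Neurog3 encodes a basic helix-loop-helix (bHLH) transcription factor, Sox3 a SOX transcription factor of the HMG box class that is needed for spermatogonial progression, and Sall1 a zinc finger protein related to Sall4. Upp1 encodes uridine phosphorylase 1, an enzyme that splits uridine into uracil and ribose 1-phosphate. Pou5f1 encodes the POU factor OCT4.

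The 250 bases before the annotated start of a member are shown because the members' transcripts moved in 1 direction, so that their promoters can be read beside the values below. Sequences are those of RefSeq on GRCm38.p6, given 5′ to 3′ on the strand of the gene. Capitals mark E-boxes (CANNTG, both strands), the motif bound by bHLH factors such as NEUROG3. The window of Upp1 is chr11:9117853-9118102 (plus strand), that of Neurog3 is chr10:62132840-62133089 (plus strand) and that of Sall1 is chr8:89044163-89044412 (minus strand).
Upp1: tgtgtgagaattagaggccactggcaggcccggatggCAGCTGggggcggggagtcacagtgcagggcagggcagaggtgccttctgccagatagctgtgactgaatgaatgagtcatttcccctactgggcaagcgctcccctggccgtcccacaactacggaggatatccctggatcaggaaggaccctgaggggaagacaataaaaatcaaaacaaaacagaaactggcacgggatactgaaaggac
Neurog3: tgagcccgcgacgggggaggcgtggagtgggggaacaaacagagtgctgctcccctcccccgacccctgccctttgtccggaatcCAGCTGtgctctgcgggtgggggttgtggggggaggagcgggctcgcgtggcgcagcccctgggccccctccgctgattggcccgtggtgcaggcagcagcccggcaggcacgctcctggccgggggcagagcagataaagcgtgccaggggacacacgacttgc
Sall1: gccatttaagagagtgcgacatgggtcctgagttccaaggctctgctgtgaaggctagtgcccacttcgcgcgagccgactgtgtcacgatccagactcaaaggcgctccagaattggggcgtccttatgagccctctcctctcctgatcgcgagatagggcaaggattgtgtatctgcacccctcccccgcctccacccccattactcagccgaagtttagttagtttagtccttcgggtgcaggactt
Upp1 and Neurog3 each held 1 E-box here, 213 and 165 bases before the start, and Sall1 held 0. An E-box was found in 66.2% of the 32851 RefSeq promoters of this length, so its presence was common. The SOX-type letters ACAAAG were found, read on the other strand, 179 bases before the start of Neurog3 and in no other window printed here, against 16.5% of all promoters. CCAAT lay 89 bases before the start of Neurog3 and 137 before that of Sall1 (33.8% of promoters), and GGGCGG lay 206 bases before that of Upp1 (32.7%). The motifs AACAAT (9.42% of promoters), AGGTCA (14.0%), ATGCAAA (4.12%) and TATAAA (12.4%) were found in none of the 3 windows. The Neurog3 window had the highest GC content of the 3, at 71.2%, above that of 92.2% of promoters, with 18 CpG dinucleotides. The Upp1 and Sall1 windows had 55.6% and 56.4% GC, with 6 and 13 CpG dinucleotides, and the median promoter had 52.4% GC. A second annotated start of Upp1, whose window is not printed, had 2 E-boxes, 213 and 23 bases before it. That window held no GGGCGG and had 10 CpG dinucleotides and 52.8% GC. A match of letters describes the window and is not a measured binding site.

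Upp1 lies on chromosome 11 at 9118103 to 9136170 (GRCm38, plus strand), and reads were summed over 1961 bp of exons in 11 merged blocks. The level of Upp1 in CPM (counts scaled to library size with TMM factors) was 4.09, 2.71, 5.21 and 3.28 CPM in BU 2, 3, 4 and 5, against 25.9, 25.5, 28.2 and 30.0 CPM in CTRL 1, 2, 3 and 4. All BU libraries were far below all CTRL libraries, and the lowest CTRL level was 4.90 times the highest BU level. The mean was 3.82 ± 1.08 CPM in BU and 27.4 ± 2.11 CPM in CTRL (SD, n = 4 each). The log2 fold change was -2.90 (SE 0.18, limma-voom adjusted p = 4.1e-09), or 7.49-fold lower in BU. Of the 14608 genes tested, 2 had a lower log2 fold change than Upp1, the member with the greatest fall.

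Neurog3 lies on chromosome 10 at 62133090 to 62134763 (plus strand), with 1674 bp of merged exons, and was the least abundant member. It had 33, 48, 13 and 15 reads in BU 2 to BU 5, against 196, 126, 136 and 190 reads in CTRL 1 to CTRL 4. The levels were 1.90, 1.91, 0.670 and 0.911 CPM in BU, against 9.32, 6.70, 5.82 and 8.11 CPM in CTRL. The groups did not overlap, and within BU the libraries 4 and 5 were lower than 2 and 3. For BU 4 the exact Poisson 95% interval of its 13 reads ran from 0.357 to 1.15 CPM, and that of BU 3 ran from 1.41 to 2.54 CPM. Such intervals cover counting error only, since amplified reads are not independent molecules. The mean was 1.35 ± 0.652 CPM in BU and 7.49 ± 1.54 CPM in CTRL (SD, n = 4 each), and the log2 fold change was -2.53 (SE 0.32, limma-voom adjusted p = 1.2e-05), or 5.77-fold lower in BU. The table lists genes with at least 1 CPM in at least 4 libraries, a level that Neurog3 reached in 2 BU and 4 CTRL libraries and the other 3 members in all 8. Over 273 bp (16.3%) of its exons Neurog3 overlaps 2010107G23Rik, a gene on the opposite strand, and the strand setting of the read counting was not given in the sources used here. This neighbour, named after its values were seen, had 8.54 CPM in BU and 13.1 CPM in CTRL (log2 fold change -0.61, SE 0.13, adjusted p = 0.0016). The other 3 members overlap no annotated gene on exons.

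Sox3 is a gene of 1 exon on the X chromosome, at 60891366 to 60893430 (minus strand, 2065 bp). Its levels were 4.49, 7.86, 2.58 and 1.94 CPM in BU 2 to BU 5, against 15.2, 9.78, 8.56 and 10.1 CPM in CTRL 1 to CTRL 4. The groups came close: BU 3, the highest BU library, was just under CTRL 3, the lowest CTRL library, which had 1.09 times its level. BU 3 had 197 reads of Sox3 against 78, 50 and 32 in the other BU libraries. The mean was 4.22 ± 2.66 CPM in BU and 10.9 ± 2.92 CPM in CTRL (SD, n = 4 each). The log2 fold change was -1.43 (SE 0.30, limma-voom adjusted p = 0.0015), or 2.70-fold lower in BU. Without BU 3 it was -1.89 (adjusted p = 7.0e-05). Tested against a fold of 1.5 rather than against no change, with limma's treat, Sox3 was not called (adjusted p = 0.171).

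Sall1 lies on chromosome 8 at 89027235 to 89044162 (minus strand, 5265 bp of exons in 4 blocks) and had the most reads of the 4 members. Its levels were 35.1, 34.7, 29.5 and 27.5 CPM in BU 2 to BU 5, against 100.6, 74.9, 82.4 and 84.3 CPM in CTRL 1 to CTRL 4. Both groups were tight and did not overlap, with a lowest CTRL level 2.14 times the highest BU level. The mean was 31.7 ± 3.78 CPM in BU and 85.6 ± 10.8 CPM in CTRL (SD, n = 4 each). The log2 fold change was -1.42 (SE 0.10, limma-voom adjusted p = 1.7e-08), or 2.68-fold lower in BU, close in size to that of Sox3 and with a smaller SE.

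**Figure D1:**
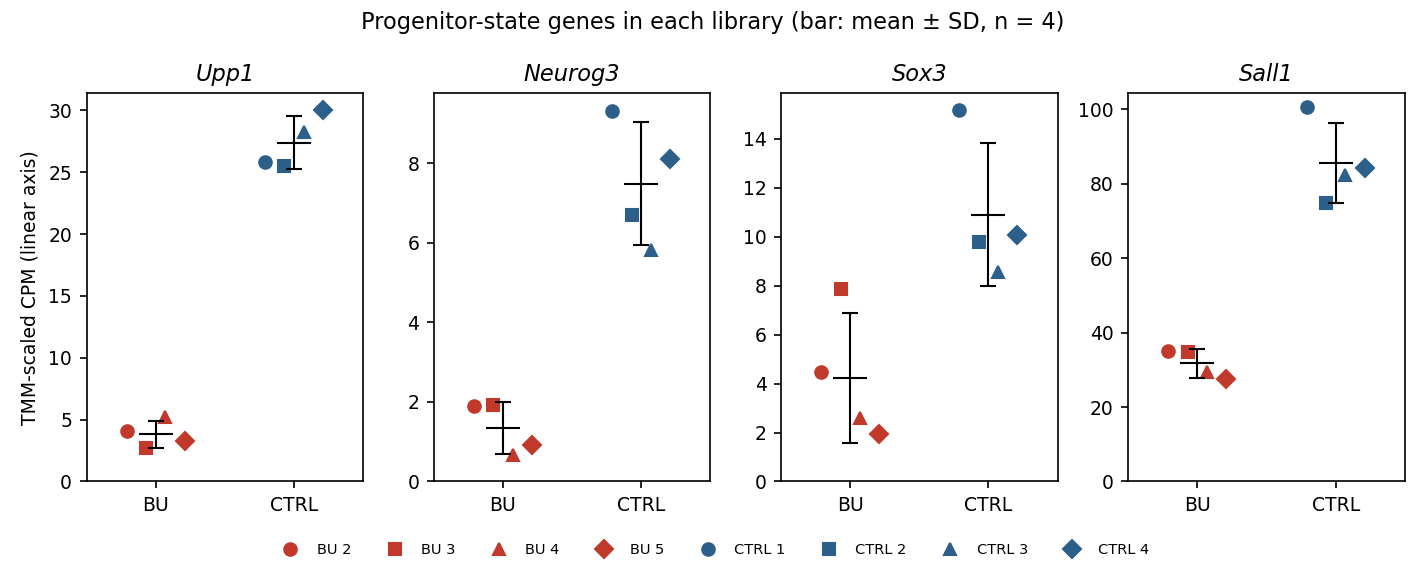
Level of each listed progenitor-state gene (y axis, TMM-scaled CPM, an axis of its own per gene) in the 4 BU and 4 CTRL libraries, with bars for the mean ± SD (n = 4 each). Upp1 lies between 2.71 and 5.21 CPM in BU and between 25.5 and 30.0 CPM in CTRL, while the Sox3 groups almost meet, at 7.86 CPM in BU 3 and 8.56 CPM in CTRL 3.

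All 4 listed members thus passed the call for lower RNA in BU (adjusted p under 0.05 and a fold over 1.5), a call made for 6.54% of all genes tested, with a further 6.80% called higher and 13.3% in either direction. In all 4 every BU library was below every CTRL library, as for 15.9% of all genes (14.5% had every BU library above). The median log2 fold change was -1.98 over the 4 members and -0.00591 over all genes tested. Because the members were chosen with earlier results of these data known, neither their count nor their median is a test. In sorted bulk cells, fewer cells of a type and less RNA per cell cannot be told apart. Which mouse gave which library is not in the labels, and every p is therefore relative to the spread among these 8 libraries.

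**Figure D2:**
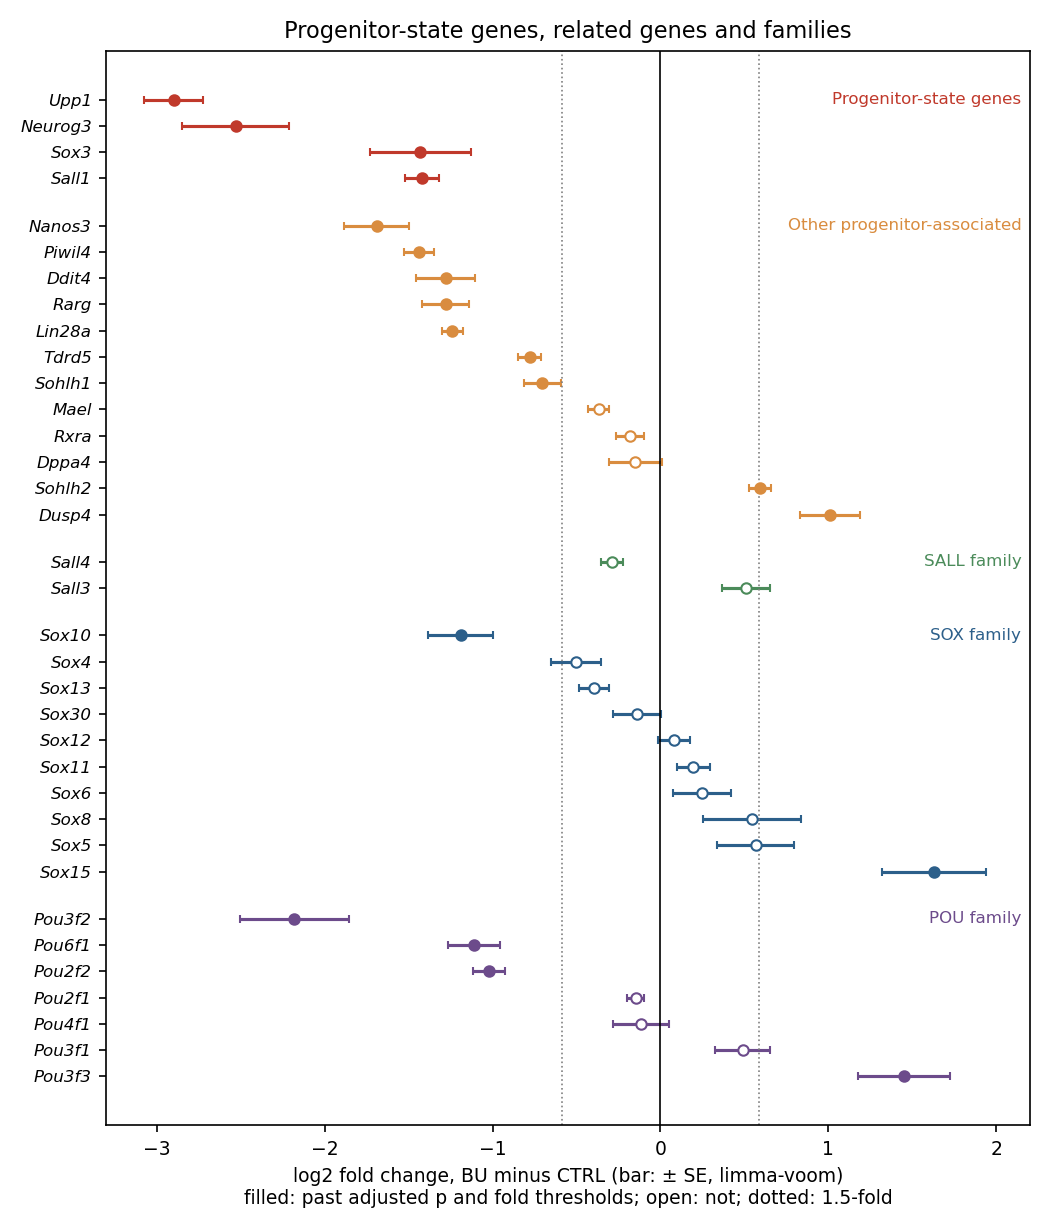
Log2 fold change of BU over CTRL with its SE (x axis) for the 4 members, the other progenitor-associated genes and the tested genes of the SALL, SOX and POU lists. Genes are ordered by size within each set, with filled points for called genes and dotted lines at a fold of 1.5. The members run from -2.90 (Upp1) to -1.42 (Sall1), and of the 12 other progenitor-associated genes 7 were called lower and 2 higher.

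The members differed in how much they varied between libraries of a group. The coefficient of variation of the CPM was 63.0% in BU and 26.8% in CTRL for Sox3, and 48.3% in BU and 20.6% in CTRL for Neurog3. It was 28.3% in BU and 7.70% in CTRL for Upp1, whereas Sall1 had 11.9% in BU and 12.7% in CTRL. The highest library was 4.04 times the lowest for Sox3 in BU and 1.77 times in CTRL, the widest range among the members in each group. The 3 transcription factor genes shared a pattern among the libraries, since BU 2 and BU 3 were above BU 4 and BU 5 and CTRL 1 was the highest CTRL library for each of them. Upp1 differed, with BU 4 highest and BU 3 lowest in BU, and CTRL 4 highest in CTRL. By the chi-square per degree of freedom of the counts, which abundant genes weigh on most, BU 3 differed from the other BU libraries by 31.2 to 36.3, and pairs of the others by 8.34 to 12.4. By the correlation of log2 CPM across genes BU 3 did not stand apart in this way, with r of 0.974 to 0.981, against 0.980 to 0.983 among the others.

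Levels of different genes were set side by side per exon length, as CPM per kilobase of exon (RPKM), with the yield of SPIA amplification left as it was. In BU, Sall1 led alone with 6.02 ± 0.718 RPKM, and Sox3 (2.04 ± 1.29 RPKM) and Upp1 (1.95 ± 0.552 RPKM) overlapped. Neurog3 was lowest at 0.806 ± 0.390 RPKM (SD, n = 4 for each value). Its spread overlapped that of Sox3, but within every BU library Neurog3 was below Sox3. In CTRL, Sall1 (16.2 ± 2.06 RPKM) and Upp1 (14.0 ± 1.08 RPKM) were the most abundant, with overlapping spreads. They were followed by Sox3 (5.28 ± 1.41 RPKM) and Neurog3 (4.47 ± 0.921 RPKM), which overlapped each other. Within every CTRL library Sall1 was above Upp1 and Sox3 above Neurog3, the latter barely in CTRL 4 (4.88 against 4.84 RPKM). The summed level of the 4 genes was 10.8 ± 2.06 RPKM in BU and 39.97 ± 4.08 RPKM in CTRL. Of this sum Sall1 made up 55.7% in BU and 40.7% in CTRL, and Upp1 18.0% in BU and 35.0% in CTRL. Sox3 made up 18.9% in BU and 13.2% in CTRL, and Neurog3 7.45% in BU and 11.2% in CTRL.

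Ratios of 2 members within a library do not depend on the scaling between libraries. For the log2 ratio of Upp1 to Sall1 the BU libraries 2 to 5 had -3.09, -3.67, -2.50 and -3.06, against -1.96, -1.55, -1.55 and -1.49 in CTRL 1 to 4. The groups did not overlap, and the mean difference was -1.44 (SE 0.26, exact permutation p = 0.0286, two-sided, adjusted p = 0.0571 over the 6 pairs). Neurog3 to Sall1 also separated the groups, with -4.66 ± 0.597 in BU and -3.52 ± 0.200 in CTRL (difference -1.13, SE 0.32). Neurog3 to Sox3 was the third such pair, with -1.56 ± 0.478 in BU and -0.53 ± 0.161 in CTRL (difference -1.03, SE 0.25). For both the exact permutation p was 0.0286, the smallest that 70 assignments of 4 against 4 libraries can give, and 0.0571 adjusted over the 6 pairs. With 4 libraries a group, no pair passed 0.05 after adjustment. Without BU 4, Upp1 to Sox3 also reached an exact permutation p of 0.0286, with a difference of -1.67. The adjusted p of these 4 pairs was then under 0.05 because 4 pairs instead of 3 shared the smallest p the design can give, and the differences of Neurog3 to Sall1 (-0.88) and Neurog3 to Sox3 (-0.91) were smaller than with all libraries. The other 3 pairs overlapped. Upp1 to Sox3 differed by -1.34 (SE 0.61, exact permutation p = 0.0571, adjusted 0.0857), with BU 3 at -1.53 and the other BU libraries at -0.13 to 1.01, against 0.77 to 1.72 in CTRL. Upp1 to Neurog3 differed by -0.31 (SE 0.54, exact permutation p = 0.6, adjusted 0.72) and Sox3 to Sall1 by -0.10 (SE 0.38, exact permutation p = 0.857, adjusted 0.857).

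**Figure D3:**
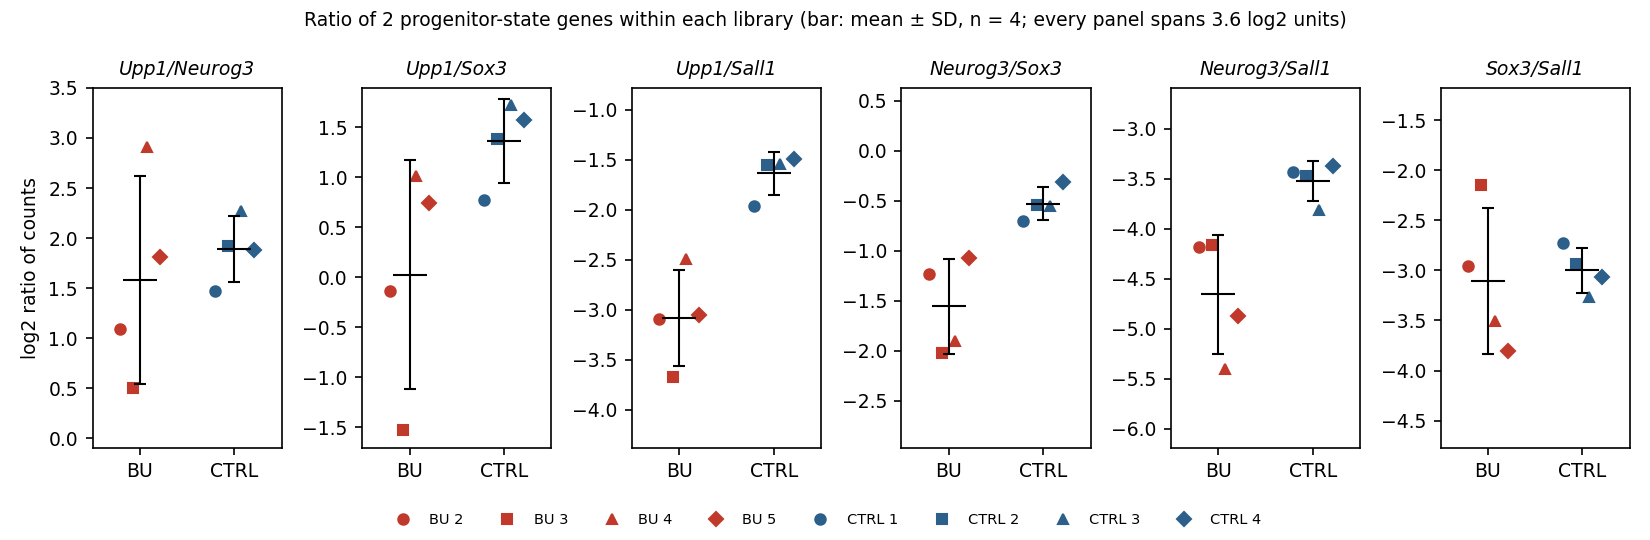
Log2 ratio of the counts of 2 members within each library (y axis, every panel spanning the same number of log2 units) for BU and CTRL, with bars for the mean ± SD (n = 4 each). Upp1/Sall1, Neurog3/Sox3 and Neurog3/Sall1 lie lower in every BU library than in every CTRL library, and the other 3 ratios overlap.

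The genes whose pattern over the 8 libraries was most like that of a member were taken by the root mean square (RMS) difference of centred log2 CPM, over 14603 genes. As a measure over both groups it follows the difference between them, so these genes are a description. Upp1 was nearest to Rin2 (RMS 0.317), Gm2832 (0.337) and Nr2e1 (0.372). Rin2 had 8.10 CPM in BU and 43.8 CPM in CTRL (log2 fold change -2.46, SE 0.13, adjusted p = 8.4e-10), and Nr2e1, an orphan nuclear receptor gene, had 2.84 CPM in BU and 20.1 CPM in CTRL. Neurog3 was nearest to Gm21698 (0.264), Fbxw13 (0.319) and Onecut2 (0.373), a homeobox gene with 10.7 CPM in BU and 61.5 CPM in CTRL (log2 fold change -2.51, SE 0.13, adjusted p = 8.0e-10). Sox3 was nearest to Ctxn3 (0.333), Itpka (0.340) and Rgma (0.363). Sall1 had much closer neighbours in Ighd (0.0619), Setd7 (0.0952) and Aff3 (0.117). Ighd had a low level, with 0.956 CPM in BU and 2.64 CPM in CTRL (log2 fold change -1.43, SE 0.27). The means of Gm2832, Gm21698, Fbxw13 and Ctxn3 were also under 1 CPM in BU, and that of Itpka was 1.25 CPM. Setd7, a lysine methyltransferase gene, had 33.6 CPM in BU and 91.9 CPM in CTRL, and Aff3 had 64.7 CPM in BU and 179 CPM in CTRL. Among the members Sox3 and Sall1 were the closest pair (0.460) and Upp1 and Sox3 the farthest apart (0.991). These choices depended on single libraries: without BU 3, none of the 3 neighbours of Upp1 or of Sox3 was among the nearest, and without BU 5 none of those of Sox3.

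Other genes associated with progenitors were taken from a list of 12, all of them tested, of which 7 were called lower, 2 higher and 3 neither, with a median log2 fold change of -0.74. Lin28a, an RNA-binding protein gene, had 78.6 ± 6.03 CPM in BU and 186 ± 5.48 CPM in CTRL (log2 fold change -1.24, SE 0.062, adjusted p = 6.8e-10). Piwil4, a PIWI protein gene, had 15.4 ± 0.973 CPM in BU and 41.9 ± 2.36 CPM in CTRL (log2 fold change -1.44, SE 0.090, adjusted p = 5.3e-09). Tdrd5, a Tudor domain gene of the piRNA pathway, fell to 62.7 ± 3.19 CPM in BU, against 108 ± 8.10 CPM in CTRL. Rarg, the retinoic acid receptor that primes progenitors for differentiation, was named after its values were seen and had 7.61 ± 1.56 CPM in BU and 18.7 ± 1.52 CPM in CTRL (log2 fold change -1.28, SE 0.14, adjusted p = 2.8e-06). Also named on sight of their values, Nanos3 (-1.69), Ddit4 (-1.28) and Sohlh1 (-0.70) were called lower by these log2 fold changes, and Dusp4 (1.01) and Sohlh2 (0.59) were called higher. Mael (-0.37), Rxra (-0.18) and Dppa4 (-0.15) were not called. The count of 2 higher became 1 without CTRL 2, BU 2, BU 4 or BU 5, and 0 with limma's treat.

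Among the other SOX genes 10 of 17 listed were tested, with 1 called lower, 1 higher and 8 neither (median log2 fold change 0.14). These counts were unsteady: 3 were called higher by DESeq2, 3 higher and 2 lower without BU 3, and 2 higher without CTRL 2 or BU 4. Sox10 had 3.67 ± 0.499 CPM in BU and 8.70 ± 1.74 CPM in CTRL, and Sox15 2.93 ± 0.756 CPM in BU and 0.974 ± 0.282 CPM in CTRL. Sox9 was counted with the Sertoli cell markers instead of in this list. Picked on sight, it was called higher (log2 fold change 0.67, SE 0.20, limma adjusted p = 0.017). Sall4 and Sall3, the paralogs of Sall1 that were tested of 3 listed, were not called by limma, edgeR or DESeq2, although at an unadjusted p under 0.05 1 was lower and 1 higher. Sall4, a regulator of A_undiff, had 200 ± 16.3 CPM in BU and 245 ± 17.3 CPM in CTRL (log2 fold change -0.29, SE 0.065, limma adjusted p = 0.0023). Sall3 had 18.4 ± 4.15 CPM in BU and 13.0 ± 0.854 CPM in CTRL (0.51, SE 0.14, limma adjusted p = 0.011). Both passed the adjusted p threshold and were under the fold threshold. Sall3 was called higher without BU 5 (0.63, limma adjusted p = 0.00101) and when scaled to the pan-spermatogonial genes (0.66, limma adjusted p = 0.00132).

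NEUROG3 binds DNA as a dimer with E proteins, and ID proteins block such dimers. Of the 3 E protein genes 0 were called by limma, edgeR or DESeq2, and at an unadjusted p under 0.05 1 was lower and 1 higher. Tcf4 had a log2 fold change of -0.31 (limma adjusted p = 0.020) and was under the fold threshold. The log2 fold changes were 0.13 for Tcf12 (limma adjusted p = 0.083) and -0.06 for Tcf3 (limma adjusted p = 0.72). Tcf3 had 0.10 when scaled to the pan-spermatogonial genes. Of the 4 listed ID genes 2 were tested, Id3 (log2 fold change 0.67, SE 0.24, adjusted p = 0.044, called higher) and Id4 (0.19, adjusted p = 0.34). The call for Id3 was lost with edgeR (adjusted p = 0.0689), with DESeq2 (adjusted p = 0.0545) and without CTRL 2, CTRL 3, CTRL 4, BU 2, BU 3 or BU 5, where its log2 fold change was between 0.52 and 0.70 and limma's adjusted p between 0.0659 and 0.131. It was also lost with library totals in place of TMM factors (adjusted p = 0.0543), with limma's treat and with a fold over 2.

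For Pou5f1, whose own level was not analysed here, the related lists were read. Of 14 other POU genes 7 were tested. Pou2f2 (log2 fold change -1.02), Pou6f1 (-1.11) and Pou3f2 (-2.18, under 1 CPM in every BU library) were called lower. Only 1, Pou3f3 (1.45, picked on sight), was called higher, a count that became 2 without BU 5. Of 20 genes of the pluripotency network 12 were tested, with 1 called lower, 1 higher (Dppa5a, picked on sight, 0.69) and 10 neither, and without CTRL 4 the count higher was 0. The lower one was Utf1, a chromatin factor gene of A_undiff, with 3.72 ± 0.194 CPM in BU and 10.1 ± 1.47 CPM in CTRL (log2 fold change -1.42, SE 0.17, adjusted p = 7.8e-06).

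Of 26 other genes of pyrimidine salvage and breakdown 19 were tested, with 0 called lower by limma, edgeR or DESeq2, and 2 called higher by limma (median log2 fold change 0.10). At an unadjusted p under 0.05, with no fold required, 3 of the 19 were lower and 6 higher. Among these, Samhd1, which encodes a nucleotide triphosphohydrolase, had a log2 fold change of -0.44 and was under the fold threshold. Tk1, the cytosolic thymidine kinase of dividing cells, had 36.4 ± 4.05 CPM in BU and 16.8 ± 1.48 CPM in CTRL (log2 fold change 1.12, SE 0.10, adjusted p = 3.9e-07). Upb1, a gene of uracil breakdown picked on sight of its values, was the other one called higher, at 1.02 on the log2 scale. Of the 9 genes of pyrimidine synthesis, all tested, 0 were lower by limma, edgeR or DESeq2, or at an unadjusted p under 0.05, while 2 were called higher and 6 were higher at an unadjusted p under 0.05. Rrm2, a subunit gene of ribonucleotide reductase, had a log2 fold change of 1.29, and Tyms, the thymidylate synthase gene, one of 0.63.

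Lists of other spermatogonial states were read beside the members. These lists were chosen with earlier results of these data known, so their counts are a description. Of 17 stem-associated genes 7 were called higher, 10 neither and 0 lower by limma, edgeR or DESeq2, where 6.80% of all genes were called higher. At an unadjusted p under 0.05 9 were higher and 0 lower (median log2 fold change 0.53), and Nefm, Lhx1 and Bcl6b had 1.51, 1.62 and 1.10. Gfra1 (0.54, limma adjusted p = 2.6e-04) and Etv5 (0.53, limma adjusted p = 7.1e-05), picked on sight, were under the fold threshold. Of 12 pan-spermatogonial genes 9 were not called, 1 was higher (Gfra2, picked on sight, log2 fold change 0.87) and 2 were lower. The lower ones were the transcription factor genes Zbtb16, with 107 ± 8.95 CPM in BU and 186 ± 4.15 CPM in CTRL, and Foxo1, with 171 ± 9.93 CPM in BU and 291 ± 19.2 CPM in CTRL. Uchl1 (log2 fold change -0.58, limma adjusted p = 1.6e-05) was just under the fold threshold. At an unadjusted p under 0.05, with no fold required, 5 of the 12 were lower and 2 higher. Of 8 genes of differentiating spermatogonia 7 were called higher and 1 lower, of which Sohlh2 (higher) and Sohlh1 (lower) are also in the progenitor list above. Kit, whose protein on the cell surface was selected against in the sort, had 88.6 ± 14.6 CPM in BU and 16.7 ± 2.87 CPM in CTRL (log2 fold change 2.42, SE 0.13). The other sort markers were not called. Itga6 had a log2 fold change of 0.26 (limma adjusted p = 0.0015) and was under the fold threshold. Cdh1 had -0.03 (limma adjusted p = 0.8), and 0.12 when scaled to the pan-spermatogonial genes. That scaling was chosen after the data were seen and moved the median of all genes by 0.151 on the log2 scale. Under it the members' log2 fold changes were -2.76 for Upp1, -2.37 for Neurog3, -1.28 for Sox3 and -1.27 for Sall1, and all 4 were called lower.

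Total counts ran from 17181963 to 24243985 in BU and from 18152779 to 23875108 in CTRL, and mitochondrial genes took 42.04 to 45.55% of counts in BU and 39.78 to 43.49% in CTRL. Of 14 immune marker genes 6 were listed, all 6 called higher, with a summed level of 31.5 to 45.6 CPM in BU and 12.9 to 22.1 CPM in CTRL. Of 5 peritubular and stromal markers 3 were listed, with a sum of 33.7 to 37 CPM in BU and 54.4 to 58.8 CPM in CTRL. They did not move together, since Col1a1 was called lower (17.6 CPM in BU and 46.3 CPM in CTRL), Pdgfra higher (14.9 CPM in BU and 7.76 CPM in CTRL) and Myh11 neither. Of 10 Sertoli cell markers 6 were listed, with 40.2 to 56.9 CPM in BU and 36.5 to 46.7 CPM in CTRL. Sox9 (log2 fold change 0.67) and Cldn11 (1.30), picked on sight, were called higher, and the other 4 Sertoli markers were not called. Of 6 endothelial markers 5 were listed, with 29.5 to 38.2 CPM in BU and 23.5 to 25.2 CPM in CTRL. Of these 5 only Kdr was called (16.8 CPM in BU and 6.06 CPM in CTRL), and Cdh5 and Tek had log2 fold changes of -0.42 and -0.24. Markers not listed were not analysed here. Leydig cell markers (1 of 6 listed) and those of spermatocytes (8 of 8) and spermatids (6 of 7) overlapped between the groups in sum. Of the spermatocyte markers Spo11 (log2 fold change -1.03), picked on sight, was called lower and the other 7 were not called. At an unadjusted p under 0.05, with no fold required, 3 spermatocyte markers were lower and 2 higher. The part of all these cell types in the members' levels was not tested.

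**Figure D4:**
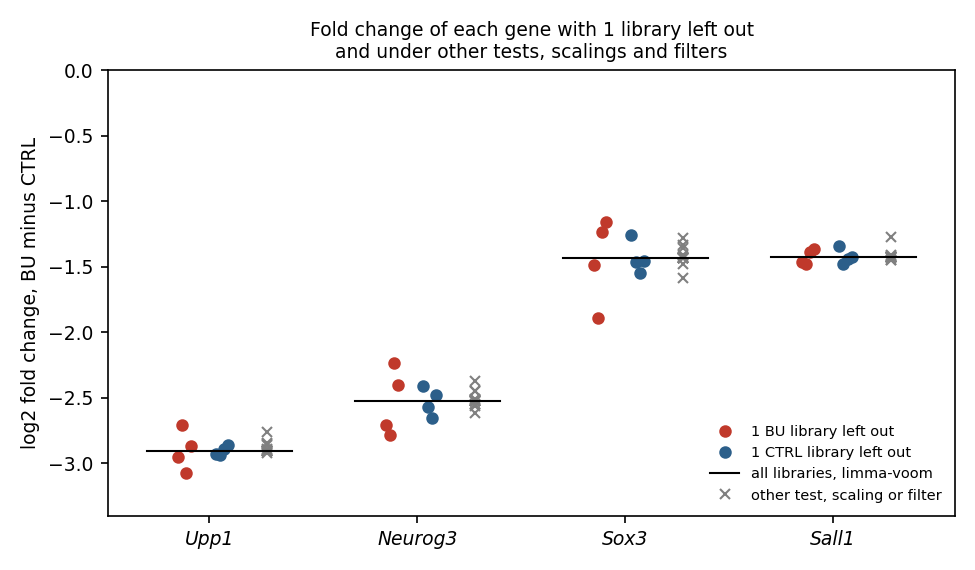
Log2 fold change of each member (y axis, BU minus CTRL) with all 8 libraries, with 1 library left out in turn and under the other settings. Leaving out 1 library moved Sox3 between -1.89 and -1.16 and Sall1 between -1.48 and -1.34, and no value crossed 0.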

How the data were processed

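RNA-seq of sorted A_undiff was performed by the authors on 4 BU and 4 CTRL libraries, as 100 bp paired-end reads after SPIA amplification. Tools named in the submitters' notes are featureCounts, limma and edgeR, with build GRCm38. Neither the aligner nor the annotation release nor the strand setting was given in the sources used here. The authors deposited raw read counts per gene without normalisation, and every test here started from these counts. Left unused were 8 columns of CPM, 1 per library, and the columns of their own comparison (log2 fold changes, mean log2 CPM, p-values and adjusted p-values). Gene lengths in bp, also deposited, gave the RPKM. All 14608 listed genes reached 1 CPM in 4 or more libraries, and 1 symbol is listed on a repeated line. CTRL columns name their replicate. The numbers of the BU columns (2 to 5) are not those of the BU labels (1 to 4), and these columns were taken as replicates of BU without a labelled number.

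The fit was limma-voom (limma 3.58.1 with edgeR 4.0.16, R 4.3.3) on the group alone, with TMM factors and filterByExpr, which removed 0 genes. A gene was called at a fold over 1.5 and a p under 0.05 after Benjamini-Hochberg adjustment across the table. Log2 fold changes are BU minus CTRL with their standard error (SE, median 0.126 over all genes). Pair ratios used a pseudocount of 0.5 and exact permutation tests, two-sided. The members and lists were chosen with earlier results of these data known. Named genes are the members, the 3 genes of each list lowest in adjusted p, the 3 nearest to each member and the sort markers, and any other is said to have been chosen on sight. RefSeq promoters matched 3 of the 4 listed members, and only the first of the starts of Upp1 is printed. GENCODE M21 gave the exon overlaps. On simulated counts of 14608 genes for BU against CTRL, 94% of 2-fold and 100% of 4-fold changes were recovered, with 2 false calls. The alternatives tried were DESeq2 (1.42.0), the quasi-likelihood test of edgeR, treat, quality weights, other scalings, filters and thresholds, and leaving out each library. Tables and plots were made in Python 3.11.15 (pandas 2.3.3, numpy 2.4.6, scipy 1.17.1, matplotlib 3.10.9).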

Additional observations from a re-analysis of the deposited data

Results flagged for a closer look

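Among 114 groups of 4 values checked for a library far from the others, 6 held one by Dixon's criterion (gap over range above 0.829), and chance gives about 1 in 20. None was the CPM of a member. The log2 ratio of Upp1 to Sall1 in CTRL 1 was -1.96, against -1.55, -1.55 and -1.49 in the other CTRL libraries. Rin2, the nearest gene to Upp1, had 10.0 CPM in BU 2, against 7.34, 7.35 and 7.68 CPM in the other BU libraries. Kit had 110 CPM in BU 4, against 78.6, 81.8 and 83.7 CPM in the other BU libraries, and 20.9 CPM in CTRL 2, against 14.9, 15.1 and 15.6 CPM in the other CTRL libraries. Ccnd2, a cyclin gene, had 182 CPM in CTRL 2, against 152, 153 and 156 CPM in the other CTRL libraries. Tcf12 had 159 CPM in BU 5, against 147, 148 and 148 CPM in the other BU libraries.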

How the results depend on the processing

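Upp1, Neurog3 and Sall1 were called lower under all 20 alternatives, and Sox3 under 19 of 20, the exception being treat at 1.5-fold (log2 fold change -1.43). The 1949 genes called became 375 with treat and 664 with a fold over 2. Scaling to pan-spermatogonial genes, added after the data were seen, shifted the median of all genes by 0.151 on the log2 scale and called 2184 genes, 1607 higher and 577 lower, against 993 and 956. With 1 library left out, calls ranged from 1763 to 2021, and log2 fold changes from -3.07 to -2.71 for Upp1, -2.78 to -2.24 for Neurog3, -1.89 to -1.16 for Sox3 and -1.48 to -1.34 for Sall1. Differences of log2 ratios ranged from -0.75 to 0.051 for Upp1 to Neurog3 (above 0 without BU 3), -0.42 to 0.13 for Sox3 to Sall1 (above 0 without BU 4 or BU 5), -1.67 to -0.82 for Upp1 to Sox3, -1.64 to -1.25 for Upp1 to Sall1, -1.19 to -0.87 for Neurog3 to Sox3 and -1.30 to -0.88 for Neurog3 to Sall1. Without BU 4, every pair but these first 2 had an exact permutation p of 0.0286, the smallest 3 against 4 libraries can give. Their adjusted p was under 0.05 only through that tie, which is no gain in evidence. Uncalled genes near 0 changed sign: Tcf3 ranged from -0.17 to 0.049 and Cdh1 from -0.077 to 0.0045 with 1 library left out, and they had 0.10 and 0.12 when scaled to pan-spermatogonial genes. Of 47 other named genes 12 lost a call and 3 gained one under at least 1 alternative. Of 26 list counts 14 moved by over 1.5 times under at least 1 alternative. The causes were not tested. No paired analysis was possible because the BU columns are numbered 2 to 5 and carry no labelled replicate number. Depth limits Neurog3 most, with 13 to 48 reads in BU.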

Other observations

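In 2 pairs of related genes, picked on sight of their values, the members of a pair moved in opposite directions, and how many other pairs did so was not counted. Pou3f2, a POU factor gene, had 0.691, 0.359, 0.774 and 0.729 CPM in BU 2 to BU 5, against 2.62, 2.18, 3.38 and 3.24 CPM in CTRL 1 to CTRL 4 (log2 fold change -2.18, SE 0.32, limma adjusted p = 6.5e-05). Pou3f2 was under 1 CPM in every BU library, so it met the listing level of 1 CPM in 4 libraries only through CTRL. Its close paralog Pou3f3 had 3.97, 2.99, 2.99 and 3.34 CPM in BU, against 1.76, 0.850, 0.985 and 1.28 CPM in CTRL (log2 fold change 1.45, SE 0.27, limma adjusted p = 5.5e-04). Sohlh1 and Sohlh2 encode bHLH factors of spermatogonial differentiation that bind each other. Sohlh1 had 26.2, 23.5, 25.3 and 18.4 CPM in BU, against 34.9, 40.6, 42.8 and 34.1 CPM in CTRL, whereas Sohlh2 had 65.5, 60.0, 65.8 and 67.1 CPM in BU, against 42.5, 41.5, 42.8 and 43.6 CPM in CTRL. In all 4 genes the groups did not overlap. Over all genes every BU library was below every CTRL library in 15.9% and above in 14.5%.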
